A study of Mus musculus with 15 samples.

Results

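The 41 genes described here encode the machinery that copies DNA and the enzymes and chromatin factors that work beside it, and they were measured in the colon mucosa of mice with and without colitis induced by dextran sodium sulfate (DSS). They were taken by name from the array's own annotation, and all 41 were measured among the 22011 genes tested. Each gene stands for its brightest probe among those whose signal the scanner software marked as well above background on 5 or more of 15 arrays. The mice were female Balb/cJ, 8 weeks old at the start of DSS, and the 3 groups held 5 mice each, with 1 array per mouse. The water group drank water without DSS. The DSS vehicle group drank 4% DSS for 4 days in each of 3 cycles, with washouts of 3 days on plain water, and received the vehicle of filgotinib. The filgotinib group had the same DSS cycles and 30 mg/kg filgotinib by gavage every day. Filgotinib is a small molecule that inhibits Janus kinases with a preference for JAK1. A vehicle control is the compound that the labels name for the water mice, but the design text mentions only their drinking water, and whether they were dosed with vehicle is not known here. The tissue was mucosa scraped from the distal 30 mm of the descending colon, which holds epithelium together with immune and stromal cells. The model is a chemical injury of the gut lining by cycles of a polymer in the drinking water.

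DNA replication begins when the origin recognition complex, CDC6 and CDT1 load the ring-shaped MCM2-7 helicase onto DNA in the G1 phase. CDC45 and the GINS complex then join the ring to make the active helicase, primase and the DNA polymerases copy the strands, and the sliding clamp PCNA, placed by replication factor C, holds the polymerases on DNA. In the healthy colon these genes are mainly active in the dividing cells of the lower crypt, and their transcription at the entry into S phase is known to depend on the E2F family of transcription factors.

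The promoters of 34 of the 41 genes were found in a RefSeq table of the mouse build GRCm38.p6, as windows of 300 bases from 250 before to 50 after the start of transcription. Of these 34 genes, 17 (50.0%) carried at least 1 of the letter strings TTTCCCGC, TTTGGCGC and TTCCCGCC on either strand, against 3.69% of the 27025 genes in the table. These strings are forms of the E2F consensus, and the first and the third share 7 letters and can lie on the same bases. The string CCAAT, bound by the factor NF-Y, was in the windows of 21 of the 34 genes (61.8%), against 41.1% of all genes, on either strand. A match describes letters in a window and no binding was measured. The 250 bases before the start are shown for 5 genes with an E2F string, in capitals, on the strand of the gene, because they include the 3 genes with the largest falls after DSS, a gene that rose under filgotinib and a gene that was not called in any comparison. Mcm6 lies at chr1:128359706-128359955 on the minus strand, Mcm5 at chr8:75109259-75109508, Uhrf1 (the first of its windows) at chr17:56303087-56303336, Prim1 at chr10:128014965-128015214 and Gins3 at chr8:95633309-95633558, these 4 on the plus strand, all in GRCm38.p6.
Mcm6: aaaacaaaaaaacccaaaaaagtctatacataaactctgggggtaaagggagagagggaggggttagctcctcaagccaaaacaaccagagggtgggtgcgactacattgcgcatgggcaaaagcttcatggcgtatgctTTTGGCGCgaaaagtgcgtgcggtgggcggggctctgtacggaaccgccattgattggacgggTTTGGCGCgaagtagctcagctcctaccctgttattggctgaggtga
Mcm5: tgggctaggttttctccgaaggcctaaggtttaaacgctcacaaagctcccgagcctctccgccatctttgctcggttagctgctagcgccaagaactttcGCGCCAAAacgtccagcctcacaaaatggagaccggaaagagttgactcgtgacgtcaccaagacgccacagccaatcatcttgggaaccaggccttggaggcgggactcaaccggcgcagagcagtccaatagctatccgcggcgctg
Uhrf1: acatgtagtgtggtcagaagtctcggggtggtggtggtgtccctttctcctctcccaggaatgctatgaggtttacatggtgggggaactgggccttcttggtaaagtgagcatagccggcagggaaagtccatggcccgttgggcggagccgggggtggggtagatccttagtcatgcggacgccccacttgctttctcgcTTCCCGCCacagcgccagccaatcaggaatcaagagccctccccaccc
Prim1: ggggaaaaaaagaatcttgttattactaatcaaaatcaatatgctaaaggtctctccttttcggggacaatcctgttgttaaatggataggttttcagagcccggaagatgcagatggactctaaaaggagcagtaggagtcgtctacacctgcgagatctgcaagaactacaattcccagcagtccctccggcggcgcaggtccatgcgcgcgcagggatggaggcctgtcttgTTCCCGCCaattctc
Gins3: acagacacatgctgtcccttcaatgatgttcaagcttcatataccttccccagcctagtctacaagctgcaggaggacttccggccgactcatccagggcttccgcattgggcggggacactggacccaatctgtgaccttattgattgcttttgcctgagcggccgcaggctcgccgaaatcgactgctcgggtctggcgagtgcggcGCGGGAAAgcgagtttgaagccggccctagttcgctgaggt
Mcm6 held 2 such strings, whose first bases were at -110 and -47 counted from the start, and the others held 1 each. These began at -149 in Mcm5, -48 in Uhrf1, -15 in Prim1 and -41 in Gins3. Genes with and without a string overlapped in their response to DSS: 16 of the 17 genes with a string fell, with a median log2 fold change of -0.96, and 14 of the 17 without fell, with a median of -0.84.

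Values are log2 signals after the 75th percentile of the array was subtracted, so they set a gene beside itself in other mice and not beside other genes. A gene was called, and is said to have risen or fallen, at an adjusted p under 0.05 in limma over all 22011 genes. The ± of a group is the SD over 5 mice, and the ± of a log2 fold change is its SE. The 75th percentile signal was between 551.6 and 812.7 and the share of probes well above background between 50.2% and 62.1% on the 15 arrays. Precision is limited by the number of arrays. Arrays lay on 6 slides scanned on 4 days. A pair of mice stood apart. Water mouse 3 had the lowest value of the water group for 40 of the 41 genes, and DSS vehicle mouse 3, the sole array on its slide and scan day, had the highest of its group for 38. Averaged over the 41 genes, the log2 difference from the water mean was -0.57 in water mouse 3 and -0.46 in DSS vehicle mouse 3, while the other DSS vehicle mice were between -1.24 and -0.91. Water mouse 2 was the highest of its group for 36 genes, at 0.44. Filgotinib mice were between -0.93 and -0.45, with mice 1 and 5 lowest for 19 and 17 genes and mice 2 and 4 highest for 18 genes each.

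**Figure D1:**
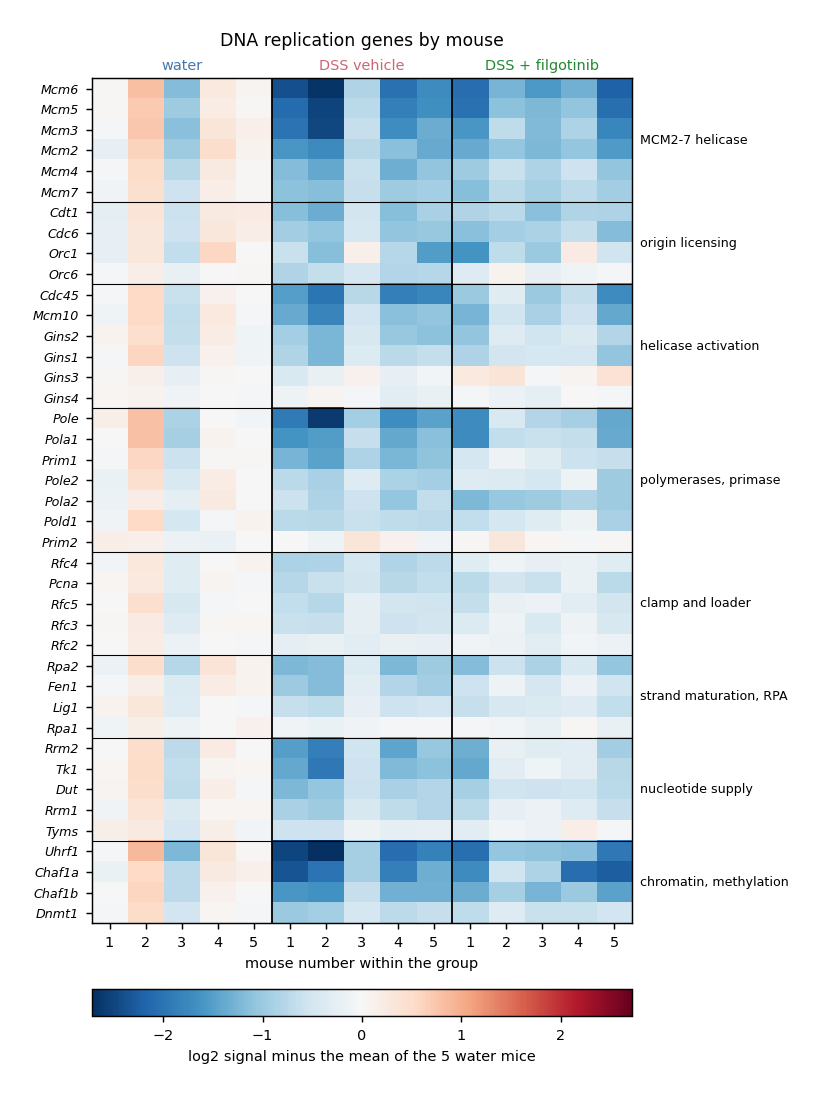
Heat map of the 41 DNA replication genes (rows, grouped by role) in the 15 mice (columns), as log2 signal minus the mean of the 5 water mice, on a scale from blue (lower) to red (higher). The DSS vehicle columns are blue for nearly all rows, palest in mouse 3, and the filgotinib columns lie between those and water for many rows.

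The comparison of DSS vehicle with water mice addresses the effect of repeated DSS on this machinery. RNA of most of the replication machinery was lower in DSS vehicle mice: 35 of the 41 genes fell and none rose, while 8.41% of all genes tested were called lower and 10.8% higher. The 6 genes that were not called were Orc1, Gins3, Gins4, Prim2, Rpa1 and Tyms. Their log2 fold changes ran from -0.78 for Orc1 to 0.05 for Prim2. The median log2 fold change of the 41 genes was -0.91, against 0.05 for all genes, and 40 of the 41 values were negative, against 42.6% of all genes. The largest falls were those of Uhrf1 (4.01-fold), Mcm6 (3.79-fold), Mcm5 (3.41-fold) and Pole (3.3-fold), and the smallest called fall was that of Rfc2 (1.18-fold). In a scraped mucosa, fewer cells of a type and less RNA per cell cannot be told apart. For 12 genes every DSS vehicle mouse was below every water mouse, against 6.19% of all genes. Without DSS vehicle mouse 3 this count was 35 and without water mouse 3 it was 36, and DSS vehicle mouse 3 was above water mouse 3 for 29 genes. These mice were singled out by their values in these same genes, and groups with fewer mice separate more easily. The share over all genes for the counts of 35 and 36 is not given here. With arrays scaled to a common median the count of 12 became 23, and the share of all genes without overlap under that scaling is not given here. By another measure, the share of all genes called lower went from 8.41% to 7.11% under that scaling, and the share called higher from 10.8% to 4.34%. With the slide as a block, which leaves 1 DSS vehicle and 2 water mice on slide 4 for the direct comparison, none of the 41 genes was called, with a lowest adjusted p of 0.126, while the median log2 fold change was -0.86 on that slide with 40 negative values. Among the mice of the first scan day, 3 of each group, the median was -1.18, all 41 values were negative and 35 genes fell.

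All 6 genes of the MCM2-7 helicase fell, with log2 fold changes from -1.92 to -0.96. Mcm6 read 3.18, 3.97, 1.96, 3.42 and 3.22 in water mice 1 to 5, 0.77, 0.49, 2.33, 1.12 and 1.44 in DSS vehicle mice 1 to 5 and 1.08, 1.89, 1.58, 1.85 and 0.95 in filgotinib mice 1 to 5. Its probe lies at chr1:130228178-130228237 in the mouse build mm9, which the array files use, and its log2 fold change was -1.92 ± 0.38 SE, adjusted p = 0.00382. Of the DSS vehicle mice, mouse 3 alone was above the lowest water mouse. Mcm5 read 1.44, 2.13, 0.44, 1.61 and 1.44 in water, -0.68, -1.10, 0.67, -0.44 and -0.25 in DSS vehicle and -0.61, 0.29, 0.19, 0.33 and -0.65 in filgotinib mice, and changed by -1.77 ± 0.35 SE, adjusted p = 0.00384 (probe at chr8:77651350-77651410, mm9). For Mcm3 the water mice gave 2.40, 3.20, 1.33, 2.78 and 2.59 and the DSS vehicle mice 0.46, -0.01, 1.84, 0.78 and 1.11, a change of -1.62 ± 0.37 SE, adjusted p = 0.00855. Mcm2 gave -0.23, 0.60, -0.98, 0.46 and 0.09 in water and -1.59, -1.74, -0.76, -1.15 and -1.37 in DSS vehicle mice, a change of -1.31 ± 0.26 SE, adjusted p = 0.00421. Both of these genes overlapped between the groups through water mouse 3 and DSS vehicle mouse 3. Mcm4 changed by -1.12 ± 0.21 SE, adjusted p = 0.00294, from a mean of 1.98 ± 0.47 to 0.86 ± 0.31. Mcm7 went from 2.32 to 3.32 in water mice to 1.73 to 2.26 in DSS vehicle mice, the sole member of the ring without overlap, with a change of -0.96 ± 0.16 SE, adjusted p = 0.00166.

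**Figure D2:**
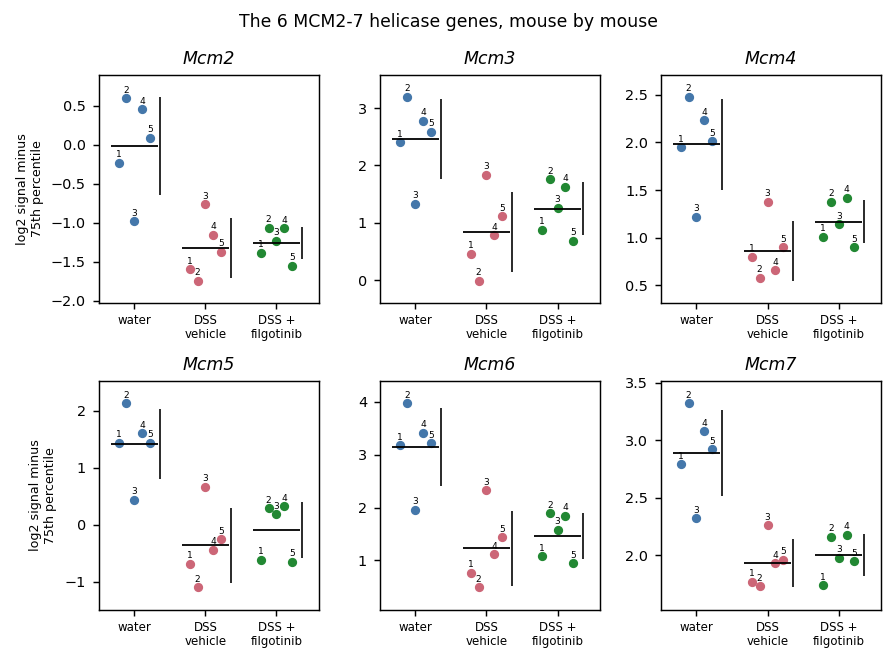
Log2 signal minus the array's 75th percentile (vertical axis, its own range in each panel) of the 6 MCM2-7 genes in each mouse, with points numbered by mouse, a line at the group mean and a bar of 1 SD to its right. Water mice lie highest in each panel apart from mouse 3, and DSS vehicle mouse 3 lies above the other 4 of its group.

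Of the 4 genes that license origins, Cdt1, Cdc6 and Orc6 fell and Orc1 was not called. Cdt1, a loader of the MCM ring, read 1.77, 2.39, 1.46, 2.29 and 2.26 in water, 0.89, 0.69, 1.55, 0.89 and 1.15 in DSS vehicle and 0.90 to 1.31 in filgotinib mice, and changed by -1.00 ± 0.19 SE, adjusted p = 0.00299. Cdc6, the ATPase that loads the ring together with Cdt1, read -1.04, -0.51, -1.38, -0.51 and -0.64 in water, -1.76, -1.88, -1.29, -1.89 and -1.86 in DSS vehicle and -1.99 to -1.47 in filgotinib mice, a change of -0.92 ± 0.18 SE, adjusted p = 0.00325. The 4 DSS vehicle mice other than mouse 3 lay within -1.89 to -1.76, below all water mice. Orc1, the largest subunit of the origin recognition complex, gave -2.84, -2.30, -3.28, -2.04 and -2.59 in water and -3.22, -3.76, -2.47, -3.38 and -4.14 in DSS vehicle mice and -4.23 to -2.38 in filgotinib mice. Its change of -0.78 ± 0.35 SE, adjusted p = 0.132 was within the spread of both groups, with DSS vehicle mouse 3 above 3 of the water mice. Orc6, its smallest subunit, fell without overlap (-0.70 ± 0.10 SE, adjusted p = 0.000577), and its values by mouse are given with the filgotinib comparison.

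Of the 6 genes that turn the loaded ring into an active helicase, Cdc45, Mcm10, Gins1 and Gins2 fell, while Gins3 and Gins4 were not called. Cdc45 read -2.87, -2.26, -3.41, -2.70 and -2.83 in water, -4.30, -4.80, -3.57, -4.68 and -4.59 in DSS vehicle and -3.83, -3.14, -3.81, -3.45 and -4.52 in filgotinib mice, a change of -1.57 ± 0.28 SE, adjusted p = 0.0022 without overlap. Its probe was well above background on 11 of the 15 arrays, all 5 of water but 2 of DSS vehicle, so the low end is near background. With normexp background correction its change was -0.54. The other 40 genes were well above background on all 15 arrays. Mcm10, needed to start unwinding, read 0.35, 1.01, -0.21, 0.73 and 0.43 in water, -0.91, -1.34, -0.07, -0.68 and -0.62 in DSS vehicle and -0.94 to -0.08 in filgotinib mice, a change of -1.19 ± 0.26 SE, adjusted p = 0.00675. Gins1 and Gins2, subunits of the GINS complex, changed by -0.77 and -0.95 on the log2 scale (adjusted p = 0.0182 and 0.00654). Gins3 gave 4.08, 4.19, 3.82, 4.08 and 4.07 in water, 3.63, 3.85, 4.17, 3.83 and 3.98 in DSS vehicle and 4.31, 4.39, 4.00, 4.12 and 4.44 in filgotinib mice, and its DSS difference was -0.16 ± 0.11 SE, adjusted p = 0.341 with a 95% interval of -0.40 to 0.08. Gins4 gave 1.50, 1.55, 1.35, 1.43 and 1.40 in water, 1.31, 1.52, 1.41, 1.14 and 1.24 in DSS vehicle and 1.18 to 1.46 in filgotinib mice, a difference of -0.12 ± 0.08 SE, adjusted p = 0.297 with an interval of -0.29 to 0.05. Whether the subunits differed from each other in their response was not tested.

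Among the 7 genes of the polymerases and primase, 6 fell and Prim2 was not called. Pole, the catalytic subunit of the leading-strand polymerase epsilon, read 0.14, 0.77, -0.88, -0.02 and -0.09 in water, -1.95, -2.62, -0.95, -1.71 and -1.47 in DSS vehicle and -1.72, -0.43, -0.81, -0.93 and -1.41 in filgotinib mice. Every DSS vehicle mouse was below every water mouse, with the closest pair again water mouse 3 and DSS vehicle mouse 3, and the change was -1.72 ± 0.34 SE, adjusted p = 0.00379. Pola1, the catalytic subunit of polymerase alpha, read -0.51, 0.30, -1.41, -0.40 and -0.48 in water, -2.13, -2.01, -1.13, -1.90 and -1.64 in DSS vehicle and -2.22 to -1.11 in filgotinib mice, a change of -1.26 ± 0.30 SE, adjusted p = 0.0108. Pole2 and Pola2, the second subunits of these enzymes, changed by -0.75 and -0.74 on the log2 scale, and Pold1, the catalytic subunit of polymerase delta, by -0.70 (adjusted p = 0.0103, 0.00137 and 0.0102). The 2 subunits of primase, which lays the RNA primers, differed in their calls. Prim1, the catalytic subunit, changed by -1.18 ± 0.18 SE, adjusted p = 0.000897 without overlap. Prim2, the large subunit, gave -2.15, -2.19, -2.48, -2.52 and -2.34 in water, -2.33, -2.47, -2.00, -2.22 and -2.42 in DSS vehicle and -2.38 to -2.03 in filgotinib mice, a difference of 0.05 ± 0.10 SE, adjusted p = 0.784 with an interval of -0.17 to 0.27.

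All 5 genes of the clamp and its loader fell, with log2 fold changes from -0.74 to -0.24. Pcna, the sliding clamp, read 4.23, 4.44, 3.84, 4.25 and 4.13 in water, 3.41, 3.57, 3.67, 3.43 and 3.52 in DSS vehicle and 3.44 to 4.00 in filgotinib mice, a change of -0.66 ± 0.12 SE, adjusted p = 0.00254 without overlap. Rfc4 changed by -0.74 ± 0.11 SE, adjusted p = 0.00071, also without overlap. The other subunits of the loader changed by -0.55 (Rfc5), -0.52 (Rfc3) and -0.24 (Rfc2). Rfc2 had the smallest fall but narrow groups, 2.99 to 3.35 in water against 2.87 to 2.94 in DSS vehicle mice, and did not overlap.

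Of the 4 genes of strand maturation and single-strand binding, Rpa2, Fen1 and Lig1 fell and Rpa1 was not called. Rpa2, the middle subunit of the single-strand binding protein RPA, read -1.46, -0.84, -2.08, -0.96 and -1.22 in water, -2.54, -2.50, -1.68, -2.54 and -2.27 in DSS vehicle and -2.48 to -1.73 in filgotinib mice, a change of -0.99 ± 0.24 SE, adjusted p = 0.0107. Fen1, the nuclease that trims the flaps of Okazaki fragments, read 1.60, 1.81, 1.27, 1.85 and 1.75 in water, 0.67, 0.47, 1.37, 0.85 and 0.70 in DSS vehicle and 1.09, 1.51, 1.19, 1.49 and 1.11 in filgotinib mice, a change of -0.84 ± 0.16 SE, adjusted p = 0.0033. Lig1, the ligase that seals these fragments, changed by -0.52 ± 0.12 SE, adjusted p = 0.00939. Rpa1, the large subunit of RPA, gave 2.88, 3.15, 2.85, 2.97 and 3.10 in water, 2.89, 2.80, 2.90, 2.96 and 2.95 in DSS vehicle and 2.78 to 3.03 in filgotinib mice, and its difference of -0.09 ± 0.07 SE, adjusted p = 0.408 had an interval of -0.25 to 0.07.

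Of the 5 genes of nucleotide supply, 4 fell and Tyms was not called. Rrm2, the subunit of ribonucleotide reductase whose level follows the cell cycle, read 1.51, 1.99, 0.80, 1.74 and 1.51 in water, 0.02, -0.35, 0.96, 0.08 and 0.47 in DSS vehicle and 0.18 to 1.31 in filgotinib mice, a change of -1.28 ± 0.28 SE, adjusted p = 0.00743. Its partner Rrm1 changed by -0.75 ± 0.15 SE, adjusted p = 0.00435 without overlap. Tk1, the thymidine kinase of dividing cells, read 1.91, 2.36, 1.19, 1.93 and 1.91 in water, 0.46, -0.09, 1.30, 0.65 and 0.75 in DSS vehicle and 0.47, 1.56, 1.75, 1.57 and 1.10 in filgotinib mice, a change of -1.25 ± 0.28 SE, adjusted p = 0.00869. Dut, which removes dUTP, changed by -0.91 ± 0.18 SE, adjusted p = 0.00411. Tyms, the thymidylate synthase, gave 2.41, 2.50, 1.80, 2.41 and 2.18 in water, 1.70, 1.69, 2.13, 2.01 and 2.03 in DSS vehicle and 1.96 to 2.43 in filgotinib mice, a difference of -0.35 ± 0.14 SE, adjusted p = 0.0911, with water mouse 3 inside the DSS vehicle values.

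All 4 genes of replication-coupled chromatin and methylation fell. Uhrf1, which binds hemimethylated DNA behind the fork and recruits the methyltransferase DNMT1, read 1.40, 2.33, 0.23, 1.78 and 1.49 in water, -1.05, -1.27, 0.55, -0.63 and -0.38 in DSS vehicle and -0.61, 0.39, 0.35, 0.31 and -0.50 in filgotinib mice. Its change of -2.00 ± 0.39 SE, adjusted p = 0.00378 was the largest of the 41 genes (probe at chr17:56462770-56462829, mm9), and DSS vehicle mouse 3 was above water mouse 3. Chaf1a, the large subunit of the histone chaperone CAF-1, read -0.30, 0.44, -0.83, 0.13 and 0.03 in water, -2.46, -2.11, -1.02, -1.96 and -1.43 in DSS vehicle and -1.83, -0.66, -0.94, -2.18 and -2.36 in filgotinib mice, a change of -1.69 ± 0.36 SE, adjusted p = 0.00602 without overlap. Chaf1b, its second subunit, changed by -1.29 ± 0.23 SE, adjusted p = 0.00212, and Dnmt1 by -0.74 ± 0.15 SE, adjusted p = 0.0053.

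**Figure D3:**
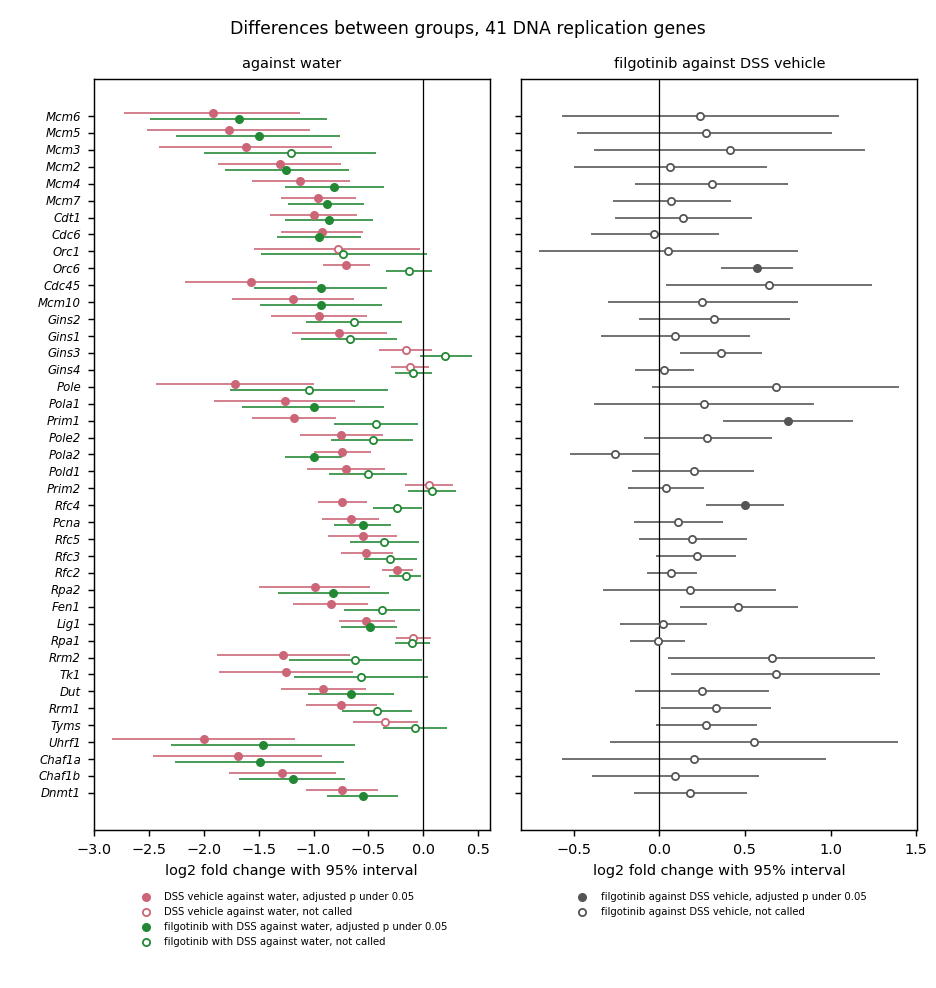
Log2 fold changes of the 41 genes (horizontal axis) with 95% intervals, on the left DSS vehicle (red) and filgotinib with DSS (green) against water, on the right filgotinib against DSS vehicle, with filled points at an adjusted p under 0.05. In the left panel 35 red and 19 green points are filled, all below 0, and in the right panel 3 are filled, all above 0.

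The comparison of filgotinib with DSS vehicle mice addresses the effect of the drug on top of DSS, and it shares the DSS vehicle mice with the comparison above. Under filgotinib 3 of the 41 genes rose, Orc6, Prim1 and Rfc4, and none fell, while 6.79% of all genes were called higher and 4.53% lower. The share of 3 in 41 is near that background. The median log2 fold change of the 41 genes was 0.24, against 0.00 for all genes. Of the 41 values 38 were positive and 3 negative, while 49.8% of all genes had negative values. The same 3 genes were the ones in which every filgotinib mouse was above every DSS vehicle mouse, against 4.87% of all genes. Without DSS vehicle mouse 3, whose values were the highest of its group, 6 genes rose, with Cdc45, Fen1 and Gins3 added. Leaving out the highest mouse of the lower group favours rises, and the share over all genes in that fit is not given here. With the slide as a block no gene was called (lowest adjusted p = 0.0507). With arrays scaled to a common median 5 rose, and the share of all genes called higher went from 6.79% to 6.91%. The share called lower went from 4.53% to 2.48%. On slide 2, with 2 filgotinib and 3 DSS vehicle mice, the median of the 41 genes was 0.29.

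Orc6 read 0.49, 0.95, 0.63, 0.74 and 0.80 in filgotinib mice 1 to 5, 0.03, 0.21, 0.39, 0.06 and 0.08 in DSS vehicle and 0.82, 1.04, 0.65, 0.85 and 0.89 in water mice. The filgotinib mice were 1.48-fold above the DSS vehicle mice on average, a change of 0.57 ± 0.10 SE, adjusted p = 0.00418 (probe at chr8:87831769-87831828, mm9). Their values overlapped those of the water mice, with a difference from water of -0.13 ± 0.10 SE, adjusted p = 0.424. Prim1 read 0.95, 1.30, 1.11, 0.84 and 0.81 in filgotinib, 0.16, -0.02, 0.59, 0.18 and 0.34 in DSS vehicle and 1.39, 2.00, 0.84, 1.46 and 1.46 in water mice. It was 1.68-fold higher than in DSS vehicle mice, a change of 0.75 ± 0.18 SE, adjusted p = 0.0168 (probe at chr10:127466952-127467011, mm9). Against water its difference was -0.43 ± 0.18 SE, adjusted p = 0.129, and only filgotinib mouse 5 was below every water mouse. Rfc4 read 1.22, 1.45, 1.33, 1.37 and 1.23 in filgotinib, 0.71, 0.72, 1.09, 0.74 and 0.85 in DSS vehicle and 1.49, 1.84, 1.22, 1.58 and 1.66 in water mice, a 1.42-fold rise (0.50 ± 0.11 SE, adjusted p = 0.0103; probe at chr16:23114024-23114083, mm9). Its difference from water was -0.24 ± 0.11 SE, adjusted p = 0.163. The largest values in this comparison after that of Prim1, Pole at 0.68 ± 0.34 SE, adjusted p = 0.202 and Tk1 at 0.68 ± 0.28 SE, adjusted p = 0.133, were above those of Orc6 and Rfc4 but were not called, and in both genes filgotinib mice 1 and 5 lay among the DSS vehicle mice.

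None of the 6 MCM2-7 genes was called between filgotinib and DSS vehicle mice. Their log2 fold changes ran from 0.06 for Mcm2 to 0.41 for Mcm3, and the 95% interval was -0.50 to 0.63 for Mcm2 and -0.57 to 1.05 for Mcm6, so changes of either sign remain within it. In Mcm6 the filgotinib mice at 0.95 to 1.89 lay inside the DSS vehicle range of 0.49 to 2.33. Across the 8 roles the median log2 fold change was between 0.10 and 0.33, and the called genes came from origin licensing, the polymerases and primase, and the clamp loader. The 3 negative values were those of Pola2 (-0.26), Cdc6 (-0.03) and Rpa1 (-0.01), none of them called, and on the arrays of the first scan day Cdc6 was at 0.05.

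**Figure D4:**
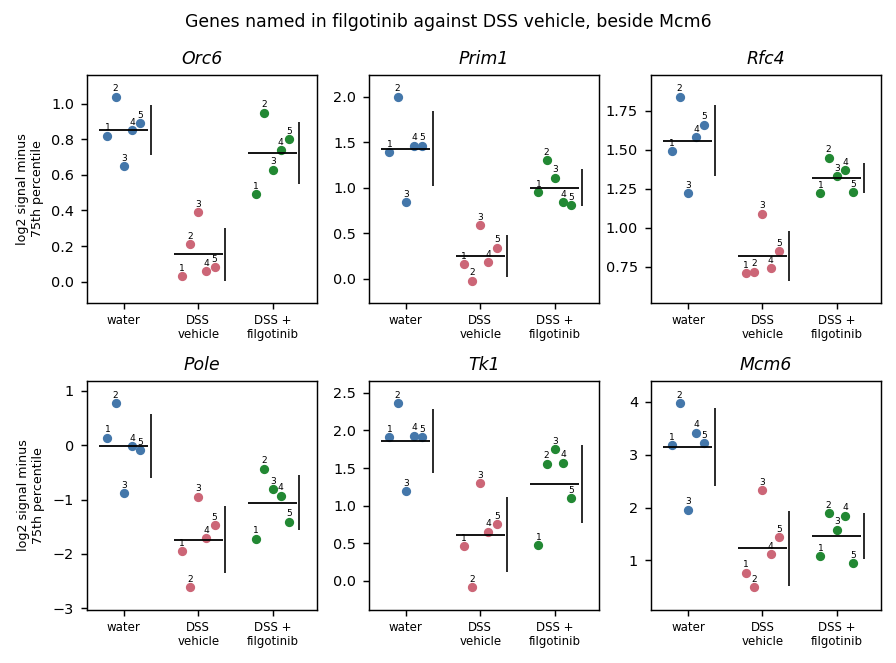
Log2 signal minus the array's 75th percentile (vertical axis, its own range in each panel) in each mouse for the 3 genes called under filgotinib (top row) and for Pole, Tk1 and Mcm6, with points numbered by mouse, a line at the mean and a bar of 1 SD. In the top row all filgotinib points lie above all DSS vehicle points, and in the bottom row they overlap.

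Set against water, the mice given DSS and filgotinib had lower values for 19 of the 41 genes and higher for none, while 3.41% of all genes were called lower and 6.43% higher. This comparison shares its mice with both others, so its values stand beside theirs and are no separate support. The median log2 fold change was -0.63, against 0.05 for all genes, and 8 genes did not overlap, against 2.82% of all genes. Of the MCM2-7 genes 5 of 6 were lower, led by Mcm6 at -1.68 ± 0.38 SE, adjusted p = 0.0193, and Mcm3 at -1.21 ± 0.37 SE, adjusted p = 0.0515 was not called. All 4 chromatin and methylation genes were lower, among them Chaf1a at -1.49 ± 0.36 SE, adjusted p = 0.0238 and Uhrf1 at -1.46 ± 0.39 SE, adjusted p = 0.0345. Cdc6 and Cdt1 were lower without overlap, at -0.95 and -0.86, and so was Pola2, which had the smallest adjusted p (-1.00 ± 0.12 SE, adjusted p = 0.00141). Of the clamp and loader genes only Pcna was called (-0.55 ± 0.12 SE, adjusted p = 0.0177), and of the nucleotide genes only Dut (-0.66 ± 0.18 SE, adjusted p = 0.0363). Gins3 at 0.20 ± 0.11 SE, adjusted p = 0.243 and Prim2 at 0.08 ± 0.10 SE, adjusted p = 0.643 were the 2 genes with positive values, neither called. This count moved more than the others: it was 7 without filgotinib mouse 5, 11 without filgotinib mouse 1, 8 without water mouse 2, 8 without water mouse 4, 9 without water mouse 5 and 12 without water mouse 1, but 27 without water mouse 3. It was also 27 with the scan day as a block, 24 without the filter on dim probes and 22 on the arrays of the first scan day. The shares over all genes in these refits are not given here. It was 11 with arrays scaled to a common median, where calls over all genes went from 34.6% to 51.2% lower, and 0 with the slide as a block, since no slide held mice of both groups.

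For 26 of the 41 genes the array had several probes, 79 in all. Of the 30 other probes bright enough to test, from 23 genes, 23 were lower after DSS, none higher and 7 not called, each in a fit over probes rather than genes. The other probes gave larger falls for Lig1 (-1.15 against -0.52) and Cdc6 (-1.70 against -0.92). For Cdc45 the other probe, well above background on 12 arrays, gave a smaller fall (-0.98 against -1.57). In Rfc5 the brightest probe fell and the others gave -0.08 and 0.10, and in Pole2 the other probe gave 0.03, so the calls of these genes rest on 1 probe each. The reverse held for 3 genes that were not called by their brightest probe: another probe changed by -0.82 for Orc1 (adjusted p = 0.0195), by -0.40 for Rpa1 (adjusted p = 0.00803) and by -0.50 for Tyms (adjusted p = 0.00981). Both probes of Prim2 and of Gins4 were not called. Under filgotinib another probe of Rfc4 rose too (0.56, adjusted p = 0.0165). Where in the transcript these probes lie was not analysed here.

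**Figure D5:**
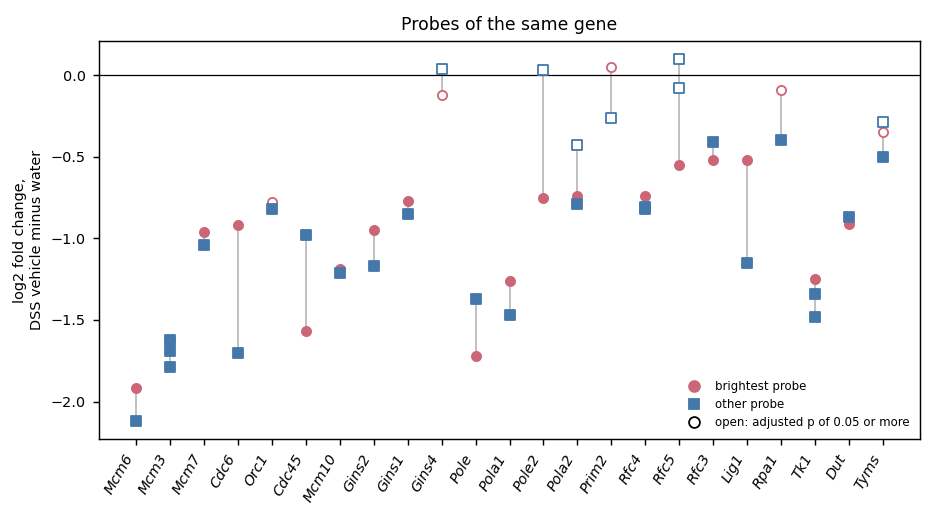
Log2 fold change of DSS vehicle minus water (vertical axis) for each tested probe of the 23 genes with several tested probes, with red circles for the brightest probe, blue squares for the others and open symbols at an adjusted p of 0.05 or more. Most probes of a gene lie together below 0, while Rfc5, Pole2, Gins4 and Prim2 have probes on both sides of 0.

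Further genes of the pathway were counted in lists written from general knowledge. Of 34 other licensing and fork genes 19 fell after DSS and none rose. For this and the following DSS counts the share over all genes is 8.41% lower and 10.8% higher. The licensing and fork genes were led by Dtl, the adaptor that targets CDT1 for destruction, at -2.45 ± 0.40 SE (adjusted p = 0.00131). Clspn, the checkpoint mediator claspin, was not well above background in any DSS vehicle mouse and was at least 2.11-fold lower (adjusted p = 0.0166), measured in 4 of 5 water mice. For this bound each dim array was given its dimmest signal well above background, or the measured value where that was higher, and the group means were compared. Of 17 measured genes of nucleotide synthesis 5 fell, led by Impdh2, which makes the precursor of guanine nucleotides, at -0.84 (adjusted p = 0.000843), and Cad, which starts pyrimidine synthesis, at -0.78 (adjusted p = 0.00729). Of 12 other chromatin genes 8 fell, led by Cdca7 at -1.61 (adjusted p = 0.00062) and the remodeller Hells at -1.56 (adjusted p = 7.87e-05).

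Of 26 measured genes that control the passage from G1 to S phase, 12 fell after DSS and 1 rose. The repressor E2f8 at -1.52 (adjusted p = 0.00478) and the kinase Cdk6 at -1.41 (adjusted p = 4.25e-05) had the largest falls, and the activator E2f1 changed by -1.23 (adjusted p = 0.0188). Genes that fell included the CDK inhibitors Cdkn1c (-1.01) and Cdkn2c (-0.93), while Cdkn1b, which encodes the inhibitor p27, was the gene that rose, by 0.43. Under filgotinib against DSS vehicle 3 of these genes rose, Ccna2, Cdkn1c and Cdkn2c, and 3 fell, Ccnd1, Cdkn1b and Cdc25a. The largest changes were Ccnd1, encoding cyclin D1, at -1.10 (adjusted p = 0.00356) and Ccna2, encoding the S-phase cyclin A2, at 1.05 (adjusted p = 0.0326). The other lists gave 3 of 34 rises for licensing and fork genes (Rnaseh2c at 0.50, Orc3 at 0.28, Orc2 at 0.25), 2 of 17 for nucleotide synthesis (Impdh2 at 0.58, Umps at 0.37) and 2 of 12 for chromatin (Dnmt3b at 0.59, Nasp at 0.30), with no falls, while 6.79% of all genes were called higher. The licensing and fork count, whose share is near that background, was 5 with arrays scaled to a common median, with quantile normalization and in the authors' deposited table. The shares of all genes called higher there were 6.91%, 6.0% and 6.57%. Filgotinib mice against water gave 7 falls and 1 rise, 2 falls and 1 rise, 9 falls and no rise, and 4 falls and no rise in the licensing, nucleotide, G1 to S and chromatin lists, against 3.41% of all genes lower and 6.43% higher. With arrays scaled to a common median these became 3, 1, 5 and 2 falls, with no rises, against 1.21% of all genes lower and 1.15% higher.

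Markers of the cell types in the scrape moved beside these genes. The mean log2 signal of 9 epithelial markers was 6.51 to 6.68 in water, 6.71 to 6.83 in DSS vehicle and 6.70 to 6.85 in filgotinib mice, and 5 of 9 rose after DSS, among them Krt19 by 0.36. That rise depended on the scaling: 1 of 9 rose with arrays scaled to a common median and none with quantile normalization or in the authors' deposited table. Crypt stem cell markers moved the other way: 4 of 5 measured fell, among them Axin2 at -1.86 (adjusted p = 0.000386), and their mean was 0.47 to 0.89 in water, -3.32 to -1.83 in DSS vehicle and -2.85 to -1.85 in filgotinib mice. Lgr5, 1 of these 5, was not well above background in any DSS vehicle or filgotinib mouse. Signal near background therefore enters these means and their order among mice. Leukocyte markers rose in 3 of 4, from -0.72 to 0.25 in water to 0.10 to 1.41 in DSS vehicle mice, with -0.66 to 0.60 in filgotinib mice. B cell markers rose in 3 of 4, from -4.01 to -2.89 in water to -3.39 to -0.57 in DSS vehicle mice, with -3.82 to -0.73 in filgotinib mice. Of 4 squamous epithelial markers 2 rose and of 7 myeloid markers 1, S100a9, which was also the sole marker called under filgotinib against DSS vehicle, where it was lower. None of the measured T cell (4), fibroblast (6), smooth muscle (6) or endothelial (4) markers was called after DSS. Their median log2 fold changes were 0.32, 1.69, 1.24 and 0.47, so no call does not mean no change. Fibroblast means ran from -1.52 to 1.16 in water and from -0.28 to 2.47 in DSS vehicle mice. With normexp background correction 1 fibroblast and 1 T cell marker were called higher. Within the DSS vehicle group the means of the 41 genes, of crypt stem cell markers and of myeloid markers put the 5 mice in the same order. The other marker lists did not keep that order. The dimmest signal well above background ran in nearly that order, at -4.841, -4.837, -4.544, -4.301 and -3.981 in DSS vehicle mice 1, 2, 4, 5 and 3. Its part in the order was not tested. In the water and filgotinib groups neither the crypt stem cell nor the myeloid means kept the order of the 41 genes. DSS vehicle mouse 3, with the highest replication values of its group, had the highest mean of crypt stem cell markers there, at -1.83, and also of myeloid markers, at 1.87. In the filgotinib group mouse 1, with the lowest mean of the 41 genes at -0.93, had the highest crypt stem cell mean at -1.85, and mouse 4, at -0.49 for the 41 genes, the lowest at -2.85. The part of these cell types in the changes of the replication genes was not tested.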

How the data were processed

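RNA from the scraped colon mucosa of 15 mice was hybridised to 1-colour Agilent arrays, 1 array per mouse. Each deposited scanner file holds the intensity of every spot, which Agilent Feature Extraction 11.5.1.1 had corrected for background and for trends over the array, per the file headers. A deposited table covering all arrays has the authors' log2 values for 32349 probes. Each column correlated with its own scanner file at r of 0.9988 to 0.9997, the column medians were 8.841 to 8.859, and how arrays were normalized there is not given in the sources used here. Limma is also among the tools in the submitters' processing notes.

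Values used here are the log2 processed signal less the 75th percentile of its array. Control spots and spots marked as outliers were left out, with spots of a probe averaged, which removed 101 of 56605 probes, and no spot was saturated. Probes were named through accessions in a RefSeq table of GRCm38.p6 (32939), by a file name found there (10207), by a file name shared with a matched probe (347) or by the file alone (13011). Probe coordinates are those of the files, in mm9. Where DSS vehicle mouse 3's file lacked annotation, the other files' annotation of the same probes was used. A gene was represented by its brightest probe among those well above background on at least 5 of 15 arrays.

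Groups were compared in 1 fit over 15 arrays with limma 3.58.1 (lmFit and eBayes, R 4.3.3), two-sided, with Benjamini-Hochberg adjustment over 22011 genes. The code was tested on simulated data. The members and lists were chosen with earlier results of these data known, so no p over a list is given. Named genes are, per role, the 2 largest changes after DSS and those whose call differed from their role, the MCM2-7 genes, and the 3 largest and all called under filgotinib; the pathway lists name their 2 largest changes, and the further genes named from them were chosen after their values were seen. The labels do not say that mouse numbers pair mice, and none was assumed. Deviations of same-numbered mice correlated at -0.515 to 0.532, which cannot settle whether mice were paired. Nothing states that mice of a group were handled separately after sampling, so p-values measure the spread between these samples. Tried as alternatives were other scalings and background correction, the deposited table, other filters and probe rules, only the 2 groups compared, blocks by mouse number, slide and scan day, a variance trend with robust moderation, leaving out each mouse, and, chosen after the data were seen, only the 10 arrays of the first scan day. Python 3.11.15 with numpy 2.4.6 and pandas 2.3.3 made the tables, and matplotlib 3.10.9 the figures.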

Additional observations from a re-analysis of the deposited data

Results flagged for a closer look

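Among 123 groups of 5 mice, 41 genes in 3 groups, 2 had a mouse far from the other 4 by Dixon's test at the 95% level, a level that flags about 1 in 20 groups by chance. For Cdc6, which helps load the MCM2-7 helicase, DSS vehicle mouse 3 was at -1.29 on the normalized log2 scale and the other 4 were between -1.89 and -1.76. For Cdt1, the other loader, filgotinib mouse 3 was at 0.90 and the other 4 were between 1.21 and 1.31. Each of these mice was the sole array on its slide and scan day, and the part of the slide was not tested.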

How the results depend on the processing

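The fall of the replication genes after DSS kept 33 or more of its 35 calls under every alternative except the slide as a block, with counts of 34 to 36 when each mouse was left out and a median log2 fold change of -1.18 to -0.73 over all alternatives. The slide as a block gave 0 calls in each of the 3 comparisons (lowest adjusted p 0.126, 0.0507 and 0.586); it compares DSS with water on slide 4 alone, with 1 and 2 mice, and filgotinib with water on no slide. Scaling to a common median gave 23 genes without overlap after DSS in place of 12, 5 rises under filgotinib in place of 3, and 11 falls of filgotinib mice against water in place of 19. For the count of 23 the share over all genes is not given here. The rises under filgotinib numbered 5 with the scan day as a block and 5 on the arrays of scan day 1, and 3 to 6 when each mouse was left out; Orc6, Prim1 and Rfc4 kept their calls under every alternative except the slide as a block. The falls of filgotinib mice against water numbered 11 in a fit of only those groups, 6 with a replicate block, 12 with the slide as a random block (correlation 0.095), 27 with the scan day as a block and 7 to 27 when each mouse was left out. The replicate block left the counts of 35 and 3 as they were. For the counts with blocks, with only the groups compared or with fewer mice, the shares over all genes are not given here. Alternatives were run gene by gene for the named genes against water, and under filgotinib against DSS vehicle for Orc6, Pole, Prim1, Rfc4 and Tk1; among these the signs that turned were of values that were not called. Within batches under filgotinib, Cdc6 went from -0.03 to 0.05 on scan day 1 and Orc1 from 0.05 to -0.19 on slide 2. After DSS, Prim2 was at -0.11 with the mean of its probes, -0.06 with the slide as a block, -0.05 with the scan day as a block, -0.03 to 0.09 when each mouse was left out (lowest without DSS vehicle mouse 3) and -0.04 on scan day 1, and Gins4 at 0.15 with the slide as a block. Against water under filgotinib, Prim2 was at -0.14 and Gins4 at 0.02 with the mean of their probes, and with the slide as a block Gins4 was at 0.27 and Orc6 at 0.11. The causes were not tested. With 5 mice a group, and Cdc45 near background in DSS vehicle mice, small changes could not be told from none.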
